A study of Mus musculus with 10 samples.

Results

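RNA polymerase subunit genes were followed across 10 RNA sequencing libraries of mouse B cells. Members were all genes whose symbol begins with Polr1, Polr2, Polr3 or Polrmt, which gave 29 of the 17658 genes in the table; 28 of them are described here, and all 28 reached the minimum level for testing. By the polymerase they serve, 3 of the 28 genes encode parts of RNA polymerase I alone, 2 are shared by polymerases I and III, 9 belong to polymerase III alone, 8 to polymerase II alone, 5 to all 3 polymerases, and 1, Polrmt, is the mitochondrial enzyme.

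RNA polymerase I copies the ribosomal DNA repeats into the precursor of the large ribosomal RNAs, polymerase II makes messenger RNA, and polymerase III makes transfer RNA, 5S ribosomal RNA and other short RNAs. Each nuclear enzyme has a pair of large catalytic subunits around which smaller ones assemble, and some of the small subunits are built into more than 1 of the enzymes. A resting B cell is small and makes little RNA, and a B cell whose antigen receptor is engaged grows before it divides, which raises its need for ribosomes and transfer RNA.

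The study asked which genes induced through the B cell antigen receptor differ between wild-type mice and mice that lack Nr4a1 (Nur77), an orphan nuclear receptor induced by that receptor. The 4 groups were wild type (Nr4a1+/+) unstimulated (1 library), wild type after anti-IgM (4 libraries, A to D), Nr4a1-/- unstimulated (1 library) and Nr4a1-/- after anti-IgM (4 libraries, A to D). All mice were C57BL/6 and 10 weeks old, and all B cells came from spleen and lymph node by magnetic removal of other cells. The anti-IgM groups received 10 µg/mL of an antibody that crosslinks the B cell antigen receptor for 2 hours. The labels give no time in culture for the unstimulated libraries. A change with anti-IgM therefore cannot be told apart from a change with 2 hours in culture. The labels do not describe the knockout allele and do not say whether a letter stands for a separate mouse, so p-values measure only the spread between these libraries, which may be technical.

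Expression is given as FPKM, which counts sequenced fragments relative to transcript length and to the mapped fragments of the library, and changes are differences of log2(FPKM + 1), a scale that understates the change of low genes. Where a pair of unstimulated values is given, wild type comes first, and stimulated values are in the order A to D. Nr4a1 itself stood at 126 FPKM in each unstimulated library, at 808 ± 47.2 FPKM (SD, n = 4) in wild type after anti-IgM and at 702.1 ± 44.6 (SD, n = 4) in the libraries labelled knockout. Its messenger RNA was therefore present in both genotypes, and the knockout labels could not be checked with it. After anti-IgM Nr4a1 was called lower in the labelled knockout (-0.20, limma adjusted p = 0.0432). The groups overlapped, with wild-type library B (744 FPKM) below labelled knockout library C (760 FPKM). Depth of sequencing is unknown in absolute terms, and the relative depth recovered from low genes ran from 0.900 in the unstimulated wild-type library to 1.09. The 5 T cell markers summed to 0.53 to 1.1 FPKM in every library, while the 6 B cell markers summed to 1308 to 1430 FPKM after anti-IgM and to 3894 and 3661 in the unstimulated wild-type and labelled knockout libraries. Myeloid markers, led by Lyz2, summed to between 24.5 and 141 FPKM after anti-IgM.

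Levels of the 28 genes spanned a wide range. Averaged over the 10 libraries, the highest member was Polr1d, a small subunit of polymerases I and III, at 183 FPKM, the lowest was Polr3gl, a polymerase III subunit, at 4.79 FPKM, and the median was 31.1. Among subunits found only in polymerase I the highest was Polr1b, the second largest catalytic subunit, at 84.4 FPKM and the lowest was Polr1e at 17.5. Among those found only in polymerase II the levels ran from 11.6 FPKM for Polr2i to 85.0 for Polr2m, and among those found only in polymerase III from 4.79 for Polr3gl to 32.0 for Polr3d. The 9 described subunits found only in polymerase III had a median of 15.3 FPKM, the 8 found only in polymerase II a median of 38.3 and the 5 common subunits a median of 73.9. Polrmt stood at 10.3 FPKM. Summed over these 28 genes, the FPKM were 985 and 955 in the unstimulated wild-type and labelled knockout libraries and lay between 1273 and 1360 in the 8 anti-IgM libraries, so every stimulated library was above both unstimulated ones.

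**Figure D1:**
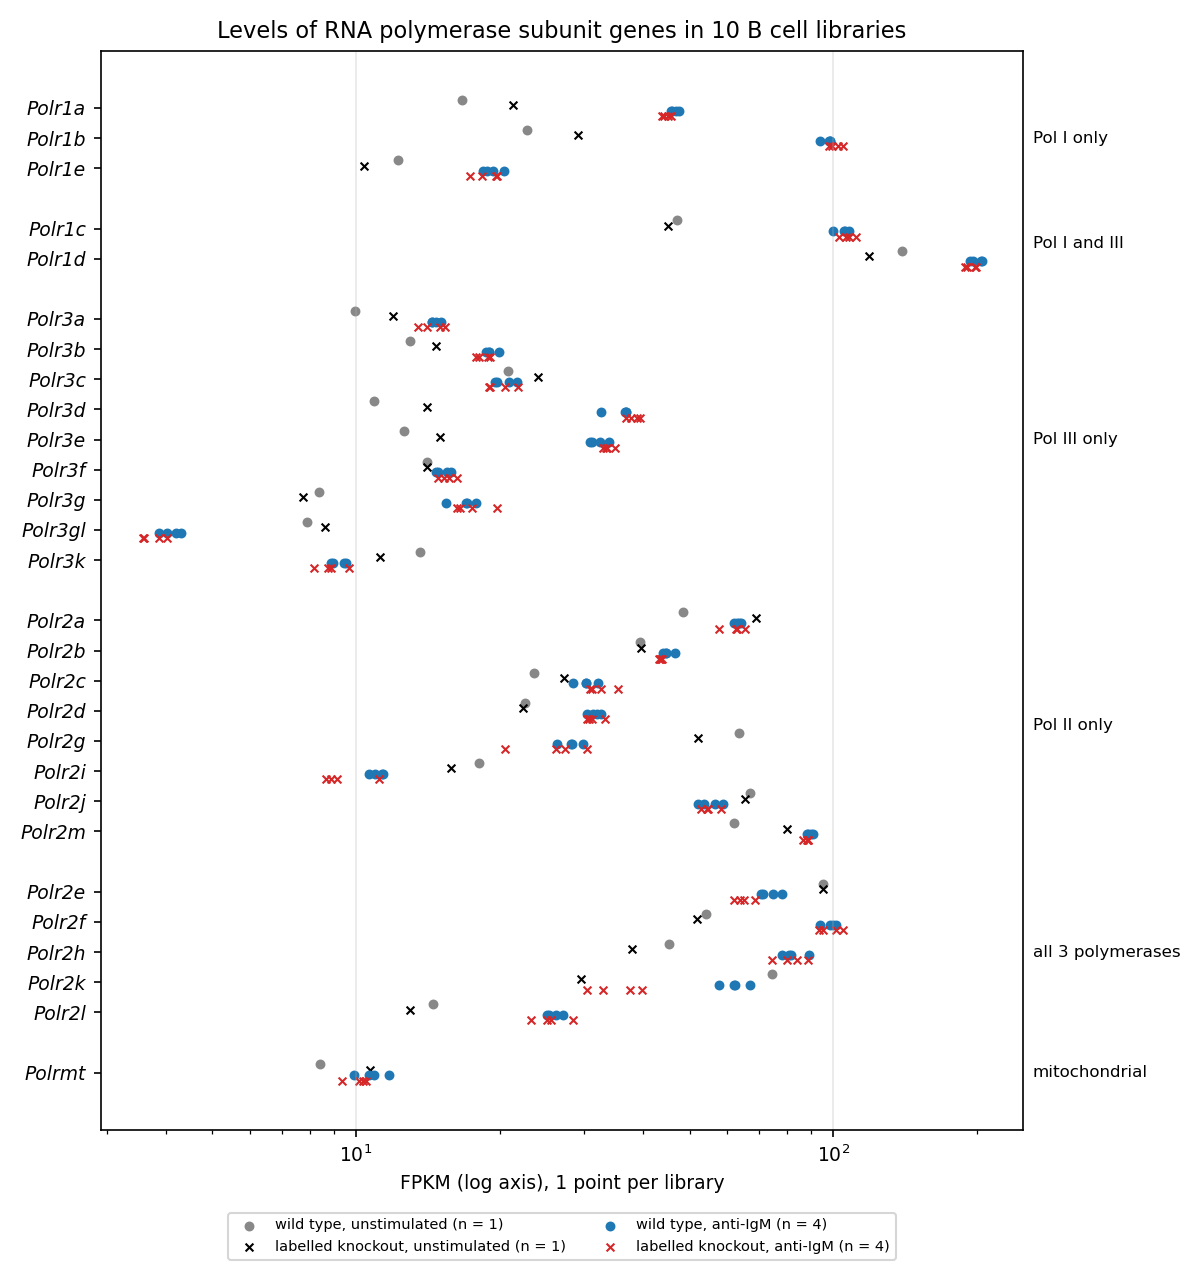
FPKM of each subunit gene on a log axis, 1 point per library, grouped by polymerase; grey circles and black crosses are the unstimulated libraries and blue circles and red crosses the anti-IgM libraries of the 2 genotypes. Stimulated and unstimulated libraries stand apart for 24 of the 28 genes, and the genotypes stand apart most widely for Polr2k. The first count was not made for all genes tested, so it does not set these genes apart from others.

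The first comparison asked which subunit genes differed between the libraries given anti-IgM for 2 hours and the unstimulated ones. The 3 members found only in polymerase I, those it shares with polymerase III, 3 of polymerase III alone and 3 of the common subunits were higher. No member that serves polymerase II alone was called higher in the values as deposited. A gene counted as changed when its limma adjusted p was under 0.05 and its log2 change was 0.5 or more in size. By this rule 11 of the 28 genes (39.3%) were higher, against 18.2% of the 10225 genes tested, and 3 (10.7%) were lower, against 30.6% of the genes tested. The median change of the members was 0.36 on the log2 scale, and that of all genes tested was -0.17. In these bulk samples, more RNA from each cell and a different mix of cells cannot be told apart, and the fall of the B cell marker sum with anti-IgM, given above, moves with this comparison; its part in the result was not tested.

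**Figure D2:**
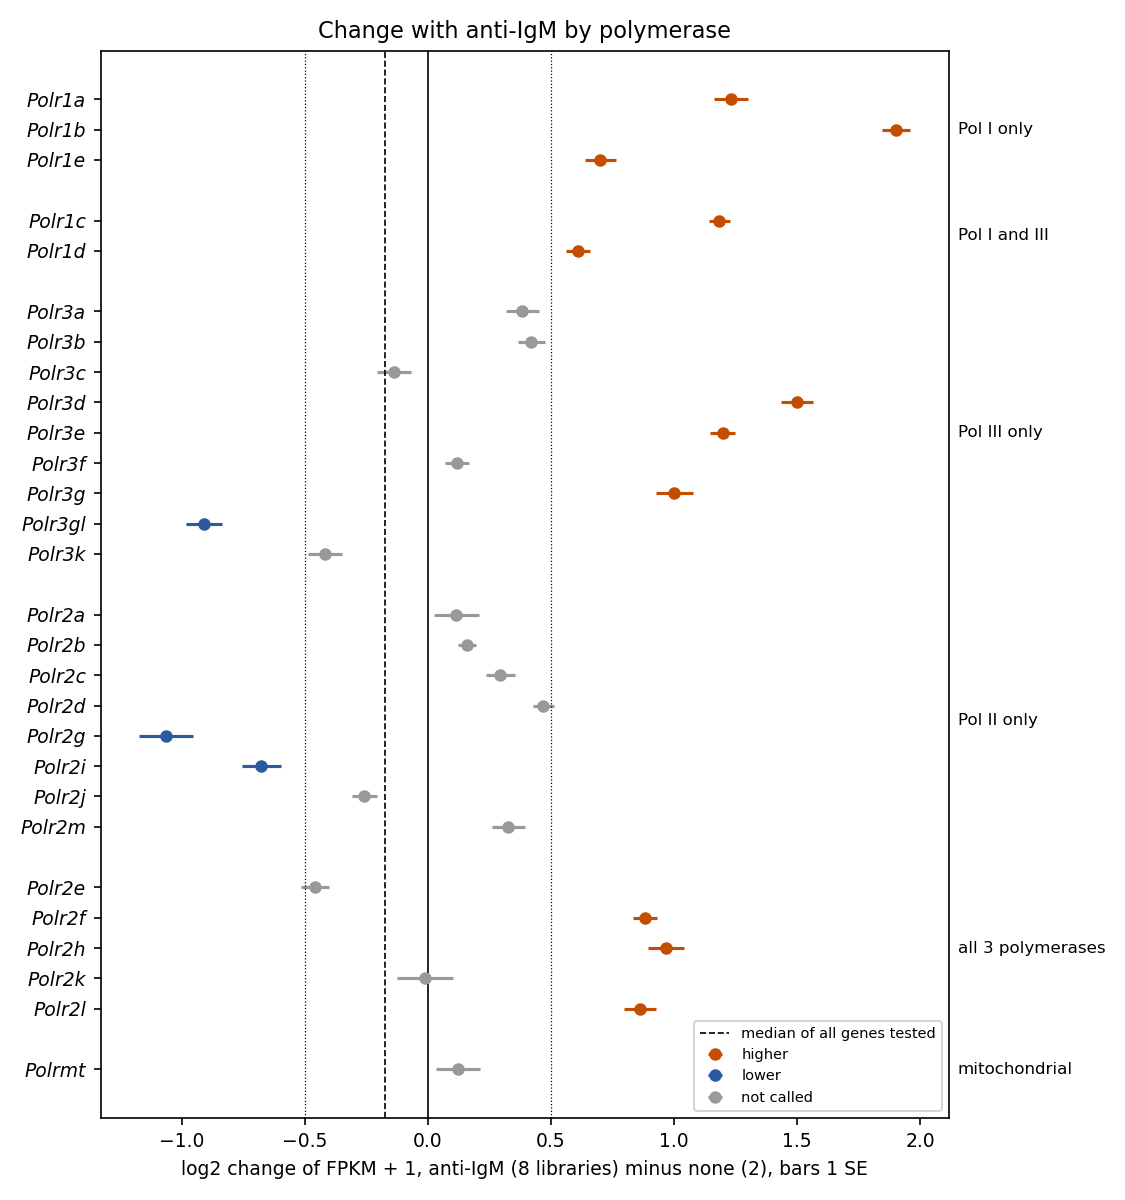
Log2 change of FPKM + 1 with anti-IgM (8 libraries against 2, genotype as a term) for each subunit gene, with bars of 1 SE; orange is called higher, blue called lower and grey not called, dotted lines mark a change of 0.5 in either direction and the dashed line is the median of all genes tested. All 3 genes of polymerase I alone and both genes shared by polymerases I and III lie to the right of 0.5, and no gene of polymerase II alone does in the deposited values shown, although Polr2d does under each of the 3 other scalings and Polr2c and Polr2m do with median-of-ratios scaling.

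All 3 members found only in polymerase I rose, while polymerase I subunits with other symbols are described below. Polr1b (chr2:129100995-129126594, plus strand of GRCm38, GENCODE M21), which with the largest subunit forms the catalytic centre, stood at 22.8 (wild type) and 29.1 FPKM (labelled knockout) without stimulation. After anti-IgM libraries A to D held 98.6, 93.6, 98.3 and 97.7 FPKM in wild type and 105, 97.9, 99.3 and 102 in the labelled knockout. Every stimulated library was far above both unstimulated libraries. The mean was 3.82-fold higher, or 1.90 on the log2 scale (SE 0.0577, limma adjusted p = 2.49e-10), which placed Polr1b at rank 116 of the 10225 genes by size of rise. Polr1a, the largest catalytic subunit, stood at 16.6 and 21.3 FPKM without stimulation, at 46.7, 45.8, 47.4 and 45.6 in wild type and at 45.8, 44.2, 43.7 and 45.1 in the labelled knockout after anti-IgM. Its 8 stimulated libraries lay close together, at 43.7 to 47.4 FPKM, and the change was 1.23 (SE 0.0695, limma adjusted p = 2.33e-08), or 2.4-fold.

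Polr1e encodes the polymerase I-associated subunit that pairs with the product of Cd3eap. Its values were 12.3 and 10.4 FPKM without stimulation, 20.4, 19.4, 18.5 and 18.8 in stimulated wild type and 17.3, 18.4, 19.6 and 19.8 in the stimulated labelled knockout. The rise was 0.70 on the log2 scale (SE 0.0638, limma adjusted p = 1.33e-06), the smallest rise of the 3. Cd3eap falls outside the symbol rule. It rose by 1.94 (limma adjusted p = 1.36e-10), from 7.80 and 9.21 FPKM to between 33.3 and 37.5 FPKM. Of the 4 further subunits known by other symbols, Twistnb of polymerase I also rose (0.84). Znrd1 of polymerase I was lower (-0.25, limma adjusted p = 0.000540) and Crcp of polymerase III higher (0.40), but neither reached the size required.

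Both subunits shared by polymerases I and III rose; their products pair with each other and help to nucleate assembly of the 2 enzymes. Polr1c stood at 47.0 and 45.1 FPKM without stimulation, and at 108, 99.7, 106 and 105 in wild type and 106, 103, 112 and 108 in the labelled knockout with it. The change was 1.18 (SE 0.0437, limma adjusted p = 8.86e-10), a 2.30-fold difference of means. Polr1d, the most abundant member, stood at 139 and 119 FPKM before and at 204, 194, 204 and 196 in wild type and 189, 190.3, 198 and 199.5 in the labelled knockout after, again with no overlap, for a change of 0.61 (SE 0.0480, limma adjusted p = 3.88e-07). With quantile normalization the change of Polr1d was 0.37 and it was no longer called. It was the one gene of the 11 that was not called higher under all 4 scalings tried.

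Of the 9 described subunits found only in polymerase III, 3 rose, 1 fell and 5 were not called. The 3 that rose were not the catalytic pair. Polr3d and Polr3e encode partners that form a subcomplex related to the initiation factor TFIIF, and both rose. Polr3d (chr14:70438757-70443447, minus strand) stood at 10.9 and 14.1 FPKM without stimulation and at 36.6, 32.5, 36.7 and 36.8 in wild type and 39.4, 36.8, 37.6 and 38.7 in the labelled knockout with it. The change was 1.5 (SE 0.0640, limma adjusted p = 2.68e-09), rank 285 by size of rise. Polr3e stood at 12.6 and 14.99 FPKM before and at 33.8, 30.8, 32.5 and 31.1 in wild type and 33.5, 34.8, 33.5 and 33.0 in the labelled knockout after, a change of 1.2 (SE 0.0509, limma adjusted p = 2.54e-09). For both partners every stimulated library was above both unstimulated ones.

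The catalytic subunits of polymerase III had smaller changes. Polr3a, the largest, stood at 9.97 and 11.9 FPKM before and 13.5 to 15.4 after (0.38, limma adjusted p = 0.000250), and Polr3b, the second largest, at 12.9 and 14.7 before and 17.9 to 19.9 after (0.42, limma adjusted p = 3.20e-05). Both passed the p threshold but not the size required as deposited. After rescaling to the same sum both were called, Polr3a at 0.53 and Polr3b at 0.57, and both passed as well with median-of-ratios scaling (0.60 and 0.64) and quantile normalization (0.62 and 0.60). Without the unstimulated labelled knockout library they changed by 0.51 and 0.53, and without the unstimulated wild-type library by 0.26 and 0.31. Only the first of these omissions brought them to the size required.

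Polr3c, Polr3f and the product of either Polr3g or Polr3gl form the subcomplex that opens DNA and contacts the promoter-bound factors. Polr3c stood at 20.8 and 24.1 FPKM without stimulation and 19.0 to 21.8 with it, a change of -0.14 (limma adjusted p = 0.0925) whose sign turned with the scaling. Polr3f stood at 14.1 and 14.1 FPKM and 14.7 to 16.3, a change of 0.12. Polr3k, whose product helps the enzyme cleave its transcript and terminate, stood at 13.6 and 11.2 FPKM before and 8.16 to 9.68 after, a change of -0.42 (limma adjusted p = 0.000177) short of the size required. These 3 genes were not called in either direction. The change of Polr3k was -0.52 without the unstimulated labelled knockout library and -0.31 without the unstimulated wild-type one.

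Polr3g and Polr3gl encode alternative forms of 1 subunit, and an enzyme holds only 1 of them; Polr3g is known as the form of stem cells and proliferating cells, and Polr3gl as the form found broadly in differentiated tissue. They changed in opposite directions. Polr3g stood at 8.37 and 7.75 FPKM without stimulation, and at 17.1, 15.4, 17.8 and 17.0 in wild type and 16.5, 16.2, 17.5 and 19.7 in the labelled knockout after anti-IgM, so that it rose by 1.0 (SE 0.0760, limma adjusted p = 2.86e-07). Polr3gl stood at 7.89 and 8.59 FPKM without stimulation and at 3.86, 4.19, 4.01 and 4.29 in wild type and 3.59, 3.57, 4.02 and 3.86 in the labelled knockout with it, a change of -0.91 (SE 0.0717, limma adjusted p = 3.93e-07). Neither gene's stimulated libraries overlapped its unstimulated ones, and both calls held under all 4 scalings. The ratio of their FPKM, a value per length, without stimulation was 1.06 in wild type and 0.902 in the labelled knockout. After anti-IgM it was 4.42, 3.68, 4.44 and 3.96 in wild type and 4.59, 4.55, 4.35 and 5.11 in the labelled knockout, or 4.13 ± 0.369 and 4.65 ± 0.323 (SD, n = 4 each). The 2 forms were thus near equal in level before stimulation, and Polr3g was the higher in each of the 8 libraries after it.

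**Figure D3:**
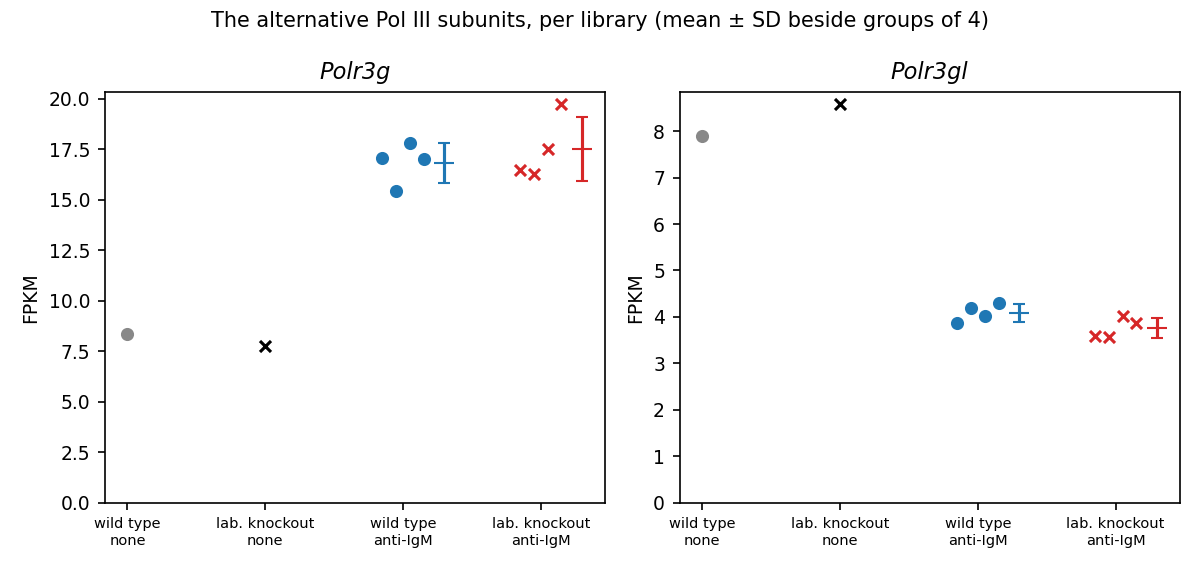
FPKM of Polr3g (left) and Polr3gl (right) in each library, by genotype and stimulation, with the mean ± SD beside groups of 4; both axes start at 0. Polr3g is higher and Polr3gl lower in all 8 anti-IgM libraries than in either unstimulated library.

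The promoters of these 2 genes are shown because the pair moved in opposite directions, and that of Polr3e because a gene transcribed by polymerase III reaches into it. Each is the 250 bases before the start in RefSeq (GRCm38.p6), 5′ to 3′ on the strand of the gene. Capitals mark the E-box CACGTG, a palindrome bound by Myc and other factors of its class, and GGTTCGA, the core of the internal B box by which polymerase III factors recognise transfer RNA genes. Polr3g lies on the minus strand (chr13:81711014-81711263), Polr3gl on the minus strand (chr3:96594182-96594431) and Polr3e on the plus strand (chr7:120917528-120917777).
Polr3g: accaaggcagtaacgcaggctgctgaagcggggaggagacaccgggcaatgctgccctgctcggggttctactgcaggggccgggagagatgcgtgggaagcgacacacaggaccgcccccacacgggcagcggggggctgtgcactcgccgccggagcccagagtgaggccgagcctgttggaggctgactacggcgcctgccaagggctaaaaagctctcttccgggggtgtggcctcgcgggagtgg
Polr3gl: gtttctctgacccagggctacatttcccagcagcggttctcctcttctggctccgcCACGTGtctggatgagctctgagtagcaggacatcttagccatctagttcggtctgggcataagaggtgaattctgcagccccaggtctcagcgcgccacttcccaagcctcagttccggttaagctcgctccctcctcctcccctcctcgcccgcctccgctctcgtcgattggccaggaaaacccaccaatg
Polr3e: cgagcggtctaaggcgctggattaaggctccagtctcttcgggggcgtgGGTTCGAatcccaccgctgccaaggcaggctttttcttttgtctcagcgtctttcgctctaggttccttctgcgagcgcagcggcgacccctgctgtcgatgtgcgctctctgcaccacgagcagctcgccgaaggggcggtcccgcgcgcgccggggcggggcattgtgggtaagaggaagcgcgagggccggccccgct

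An E-box stands 194 bases before the start of Polr3gl, and the window of Polr3g holds none. Windows of 250 bases before to 50 after the start were given for 23 of the 28 members, and 4 of them (17.4%) hold an E-box, against 7.15% of all 32851 promoters and 10.8% of the promoters of tested genes. Besides Polr3gl these are Polr3c (237 bases before the start), Polr3e (6 after) and Polr2h (24 after). By response, 2 of 10 members called higher, 1 of 2 called lower and 1 of 11 not called hold it, so it occurs in members of every response. The core GGTTCGA, searched on both strands, was in the window of Polr3e alone among members, 201 bases before the start, and in 0.91% of all promoters. It falls within a leucine transfer RNA gene, n-TLaag4 (chr7:120917517-120917598), which ends 179 bases before the start of Polr3e. A transfer RNA gene reached into 10 of the 32851 promoter windows (0.03%). Such matches are descriptions of letters and positions and carry no measure of binding.

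In the values as deposited, none of the 8 subunits found only in polymerase II was called higher, 2 were called lower and 6 were not called; their median change was 0.14. With no minimum on the size, 4 of them (Polr2b, Polr2c, Polr2d and Polr2m) would count as higher, and Polr2j would join Polr2g and Polr2i as lower. By that rule 31.2% of all genes tested would be higher and 47.7% lower. Polr2a, the largest subunit with the repeat tail that is phosphorylated during transcription, stood at 48.4 and 68.7 FPKM without stimulation and at 64.1, 63.0, 63.5 and 62.0 in wild type and 65.2, 62.6, 57.5 and 62.9 in the labelled knockout with it. The unstimulated libraries lie on either side of the stimulated ones, and the change of 0.12 (SE 0.0916, limma adjusted p = 0.267) turned sign with the scaling. Polr2b, the second largest subunit, stood at 39.4 and 39.6 FPKM and then 43.2 to 46.6, a change of 0.16. Polr2c and Polr2j encode the pair on which the core assembles. Polr2c stood at 23.6 and 27.3 FPKM and then 28.5 to 35.4 (0.29), and Polr2j at 66.9 and 65.2 and then 52.0 to 58.7 (-0.26). Neither partner reached the size required as deposited, and Polr2c was called higher with median-of-ratios scaling (0.52).

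Polr2d and Polr2g encode the 2 partners of the polymerase II stalk, which guides the RNA as it leaves the enzyme, and only Polr2g was called. Polr2g (chr19:8793127-8798577, minus strand) stood at 63.4 FPKM (wild type) and 52.1 (labelled knockout) without stimulation, and at 29.8, 28.4, 26.4 and 28.2 in wild type and 20.5, 30.4, 26.2 and 27.4 in the labelled knockout after anti-IgM. It fell to 0.470 of its unstimulated mean, a change of -1.06 (SE 0.109, limma adjusted p = 3.69e-06), the largest fall among the members. Labelled knockout library A was the lowest of the 8, and the highest of the 8, 30.4 FPKM, was still far below both unstimulated libraries. Polr2d stood at 22.6 and 22.4 FPKM without stimulation and 30.4 to 33.2 with it. Its change of 0.47 (SE 0.0441, limma adjusted p = 1.74e-06) lay just short of the size required as deposited, and Polr2d was called higher after rescaling to the same sum (0.63), with median-of-ratios scaling (0.70) and with quantile normalization (0.51).

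Polr2i, a small subunit that takes part in proofreading of the transcript, stood at 18.1 and 15.8 FPKM without stimulation, at 11.4, 11.3, 10.6 and 10.96 in stimulated wild type and at 9.12, 11.2, 8.86 and 8.66 in the stimulated labelled knockout. The change was -0.68 (SE 0.0782, limma adjusted p = 1.02e-05); under median-of-ratios scaling the change was -0.45 and the call was lost. Its exons overlap those of Tbcb on the opposite strand by 325 bases, and Tbcb changed by -1.01. Whether the authors' counting used strand is not given in the sources used here, so these values of Polr2i are uncertain. The same holds for 7 other members that share exon bases with a gene on the opposite strand, among them Polr3gl with Gm16253 (57 bases). Polr2m, the last of the polymerase II group and known as the Gdown1 subunit that modulates the response to Mediator, stood at 62.0 and 79.8 FPKM before and at 90.8, 89.6, 88.0 and 88.4 in wild type and 88.0, 88.3, 88.5 and 86.5 in the labelled knockout after, a change of 0.33 that did not reach the size required as deposited. Polr2m was called higher with median-of-ratios scaling (0.56) and without the unstimulated labelled knockout library (0.52), and its change was 0.14 without the unstimulated wild-type library.

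Of the 5 subunits common to all 3 polymerases, 3 rose and 2 were not called. Polr2f, which helps hold the assembled core together, stood at 54.1 and 51.7 FPKM without stimulation and at 100.02, 101, 93.5 and 98.2 in wild type and 93.3, 95.1, 101 and 105 in the labelled knockout with it (0.88, SE 0.0498, limma adjusted p = 2.33e-08). Polr2h, a subunit with a nucleic acid-binding fold, stood at 45.2 and 37.9 FPKM and then at 81.6, 78.0, 89.0 and 80.6 in wild type and 74.3, 79.9, 84.1 and 88.6 in the labelled knockout (0.97, SE 0.0731, limma adjusted p = 2.71e-07). Polr2l, a zinc-binding subunit of the assembly platform, stood at 14.5 and 13.0 FPKM and then at 26.2, 25.4, 25.1 and 27.1 in wild type and 25.6, 23.2, 28.4 and 25.1 in the labelled knockout (0.86, SE 0.0662, limma adjusted p = 3.17e-07). These 3 genes were between 1.86 and 1.97 times their unstimulated mean, with no overlap between the stimulated and unstimulated libraries. The other two, Polr2e and Polr2k, were not called and are described with the comparison of genotypes. The mitochondrial polymerase gene Polrmt stood at 8.40 and 10.7 FPKM before and 9.33 to 11.7 after, with a change of 0.12 (limma adjusted p = 0.228) that was not called.

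The scaling of the libraries bears on these directions, because the summed FPKM of the table were 674961 and 595500 in the unstimulated wild-type and labelled knockout libraries and 557214 to 571784 in the stimulated ones. The median change of all genes tested was -0.17 as deposited, -0.029 after rescaling to the same sum, 0.035 with median-of-ratios scaling and 0.0042 with quantile normalization. Among all genes called, the share that was higher moved from 37.3% to 49.5%, 54.9% and 50.8%. Of the 11 members called higher, 10 were called higher under all 4 scalings, and of the 3 called lower, Polr2g and Polr3gl were lower under all 4. The members' median change was 0.36 as deposited and 0.51, 0.58 and 0.39 under the others. Under the other 3 scalings, 14, 16 and 13 members were called higher and 3, 2 and 4 lower. Of all genes tested, 23.3%, 26.0% and 22.9% were higher under these scalings, against 18.2% as deposited. The shares lower were 23.8%, 21.3% and 22.2%, against 30.6%, so part of the shift was common to the whole table. Polr2d, Polr3a and Polr3b joined the higher members under each. Directions turned with the scaling for Polr2a, Polr2k and Polr3c, and none of these was called.

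Initiation, elongation and assembly factors of the 3 enzymes give the surroundings of the subunits. Of 7 initiation and termination factors of polymerase I, 5 rose and 1 fell, with a median change of 0.85. Ubtf, which binds the ribosomal DNA promoter, rose by 1.05, Rrn3, which makes the enzyme competent to initiate, by 1.02, and Taf1c of the promoter selectivity factor by 0.89, while Taf1b of the same factor fell by 0.69. Of 16 initiation factors and repressors of polymerase III, 3 rose and 4 fell, with a median change of -0.069. Gtf3c4 of TFIIIC rose by 1.22 and Snapc4 of the small nuclear RNA activating complex by 1.03, and Maf1, the repressor of polymerase III, fell by 0.84 (limma adjusted p = 1.94e-06).

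Of 18 general initiation factors of polymerase II, 4 rose, 3 fell and 11 were not called, with a median change of 0.049. Gtf2f2 of TFIIF (0.87), Ercc2 (0.79) and Gtf2h1 (0.79), both of TFIIH, were the largest rises. Of 21 pausing and elongation factors, 5 rose, 2 fell and 14 were not called, with a median of 0.044. Supt4a, of the DSIF elongation factor, fell by 1.19, and Leo1 (0.90) and Cdc73 (0.83) of the Paf1 complex rose. Of 12 genes for assembly and nuclear import of polymerases, 4 rose and 2 fell: the ATPases Ruvbl2 and Ruvbl1 rose by 1.22 and 1.2, and the GTPase Gpn3 fell by 0.75. Of 7 mitochondrial transcription genes, Tfb2m rose by 0.53, Mterf1a fell by 0.59 and 5 were not called. These counts stand against the same background of 18.2% higher and 30.6% lower.

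The second comparison asked which subunit genes differed between the genotypes after anti-IgM, 4 libraries against 4. Polr2k was lower in the libraries labelled knockout, Polr2e was slightly lower, and the other 26 genes were not called. With a limma adjusted p under 0.05 as the rule, 0 of the 28 members were higher, against 3.91% of the genes tested, and 2 (7.14%) were lower, against 5.81%. At an unadjusted p under 0.05 in the same limma fit there were 3, the third being Polr2i. By that p Polr2i ranked 1408 of the 10225 genes, so at least 1408 genes passed the threshold. Polr3d, just past it (limma unadjusted p = 0.0553), ranked 2357. In 3 members (10.7%) the 4 and 4 libraries did not overlap, against 15.5% of the genes tested. The median difference of the members was -0.025, and that of all genes was -0.024. As a count, then, the polymerase genes did not stand out from the other genes in this comparison.

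Polr2k encodes a small zinc-binding subunit of all 3 enzymes. The gene lies at chr15:36174010-36177010 on the plus strand of GRCm38 (mm10), in the GENCODE M21 annotation. After anti-IgM the values were 57.7, 67.0, 61.9 and 62.3 FPKM in wild type, in the order A to D, and 30.5, 32.9, 37.5 and 39.8 FPKM in the labelled knockout. The highest labelled knockout library was well below the lowest wild-type library. The means were 62.2 ± 3.81 and 35.2 ± 4.21 FPKM (SD, n = 4 each), the labelled knockout being at 56.5% of wild type. The difference was -0.81 on the log2 scale (SE 0.0791, limma adjusted p = 0.000219), rank 54 of 10225 by size of fall. The two-sided exact permutation test over the 70 labellings of 4 and 4 gave p = 0.0286, the smallest it can give. It remained called in each of 19 alternative settings, with differences between -0.87 and -0.75.

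The unstimulated pair showed the same direction for Polr2k, at 74.3 FPKM in wild type and 29.6 in the labelled knockout, a difference of -1.30 with 1 library each. In wild type the stimulated libraries were 0.838 times the unstimulated value, and in the labelled knockout 1.19 times. The difference between these responses was 0.49 (SE 0.177, limma adjusted p = 0.0859) and was not called. Pooled over genotypes, its change with anti-IgM was -0.01 (limma adjusted p = 0.939). Among the common subunits the next largest genotype difference was that of Polr2e.

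Polr2e (chr10:80035949-80039795, minus strand), a common subunit that contacts the DNA entering the enzyme, stood at 78.0, 74.7, 71.1 and 70.6 FPKM in wild type and at 65.0, 63.8, 68.4 and 61.8 in the labelled knockout after anti-IgM. The groups did not overlap but lay close, with 68.4 FPKM in labelled knockout library C beside 70.6 in wild-type library D. The difference was -0.18 (SE 0.0407, limma adjusted p = 0.0220; two-sided exact permutation p = 0.0286). The unstimulated pair was level, at 95.3 and 94.9 FPKM, and the change with anti-IgM was -0.46 (limma adjusted p = 1.39e-05), short of the size required. That change was called lower with quantile normalization (-0.66). It was -0.55 without the unstimulated wild-type library and -0.37 without the unstimulated labelled knockout one. The genotype call on Polr2e was lost in 8 of 19 alternative settings, among them median-of-ratios scaling (limma adjusted p = 0.0872) and the omission of wild-type library A (0.0510) or B (0.0632) or of labelled knockout library A (0.0523), B (0.0528) or D (0.0608). Over all 19 the difference was between -0.21 and -0.14, with limma adjusted p from 0.0159 to 0.0872.

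**Figure D4:**
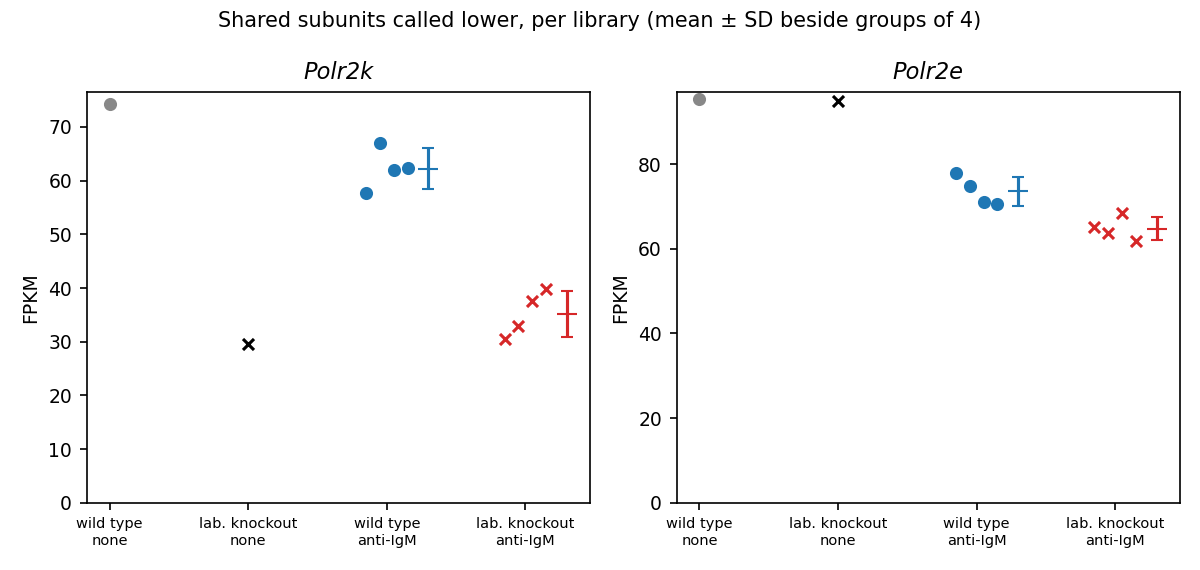
FPKM of Polr2k (left) and Polr2e (right) in each library, by genotype and stimulation, with the mean ± SD beside groups of 4; both axes start at 0. For Polr2k the labelled knockout libraries lie below the wild-type ones with and without anti-IgM, and for Polr2e only after anti-IgM.

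Polr2i came next, with 11.1 ± 0.356 FPKM in wild type and 9.45 ± 1.15 in the labelled knockout (SD, n = 4 each). Its difference of -0.21 (SE 0.0711, limma adjusted p = 0.102) was not called, and labelled knockout library B overlapped the wild-type range. Polr2b did not overlap between genotypes, at 44.6, 44.5, 46.6 and 44.03 FPKM in wild type and 43.8, 43.2, 43.2 and 43.5 in the labelled knockout. That difference was only -0.047 (limma adjusted p = 0.322; two-sided exact permutation p = 0.0286). The other 24 genes differed by at most 0.12 in either direction. Among them were both catalytic subunits of polymerases I and III, the Polr3g and Polr3gl pair (0.051 and -0.096), and Polr2f, Polr2h and Polr2l. For 11 members the sign of the difference depended on the scaling, and none of these was called.

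**Figure D5:**
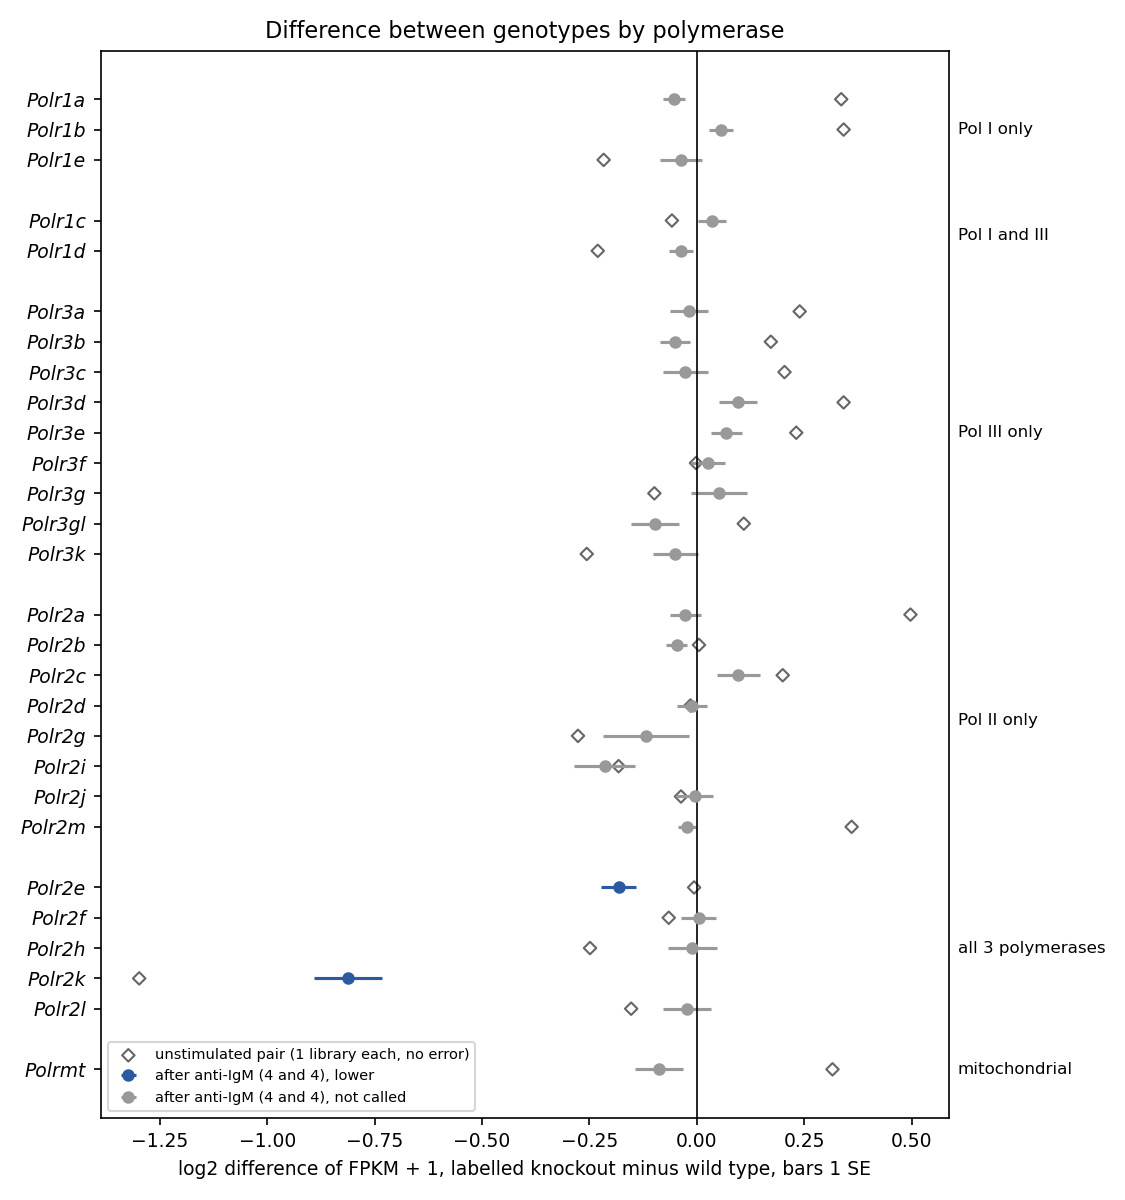
Log2 difference of FPKM + 1, labelled knockout minus wild type, for each subunit gene after anti-IgM (filled circles with bars of 1 SE, 4 libraries each) and without stimulation (open diamonds, 1 library each, no error). Polr2k lies far to the left in both comparisons, and most other filled circles are within 0.12 of zero.

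Polr2k and Nr4a1 lie on the same chromosome, 65.1 Mb apart; Nr4a1 is at chr15:101254269-101274795. Of 5 tested genes within 500 kb of Polr2k, 2 were called lower in the labelled knockout, Vps13b (-0.28, limma adjusted p = 0.0120) and Ankrd46 (-0.38, limma adjusted p = 0.0105). Cox6c (-0.16), Rnf19a (-0.15) and Pabpc1 (-0.012) were not. On chromosome 15 as a whole 53 of 372 tested genes (14.2%) were called in either direction, against 938 of 9322 genes placed on the annotation (10.1%); chromosome 1 had a higher share (16.4%), and chromosome 6 was close (13.8%). Elsewhere in the transcription machinery, Gtf2b, the general factor TFIIB, was lower in the labelled knockout (-0.22, limma adjusted p = 0.00388), as was Gtf3a, the 5S factor TFIIIA (-0.15, limma adjusted p just under 0.05). No other gene of the initiation, elongation, assembly and mitochondrial lists was called between genotypes. Among the B cell markers Cd79b (-0.32) and Cr2 (-0.52) were lower in the labelled knockout, and the myeloid marker sum was 40.4 to 141 FPKM in wild type and 24.5 to 104 in the labelled knockout; their part in these differences was not tested.

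The third comparison asked whether the response to anti-IgM differed between genotypes. Each unstimulated group is 1 library, assumed in the fit to vary like the stimulated groups. The difference in response was called for 4 members (14.3%), against 18.9% of the genes tested. Over all genes tested, 14.7% were called lower in the labelled knockout and 4.18% higher. In each of the 4 members the response was lower in the labelled knockout, near the share of all genes in that direction. They were Polr2a (-0.52, SE 0.0827, limma adjusted p = 0.00409), Polr1a (-0.39, SE 0.0592, limma adjusted p = 0.00376), Polr2m (-0.38, SE 0.0476, limma adjusted p = 0.00237) and Polr1b (-0.29, SE 0.0645, limma adjusted p = 0.0158). The median of this quantity over all genes was -0.096. Rescaling to the same sum, which moved that median to -0.25, gave 13 members, all lower in the labelled knockout. Of all genes tested, 33.8% were then lower and 1.73% higher. Quantile normalization gave 7, of which 3 were higher (Polr1d, Polr2k and Polr3k), against 11.8% of all genes lower and 8.54% higher. Median-of-ratios scaling gave 3, without Polr1b (-0.22, limma adjusted p = 0.0868), against 8.30% lower and 4.33% higher.

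For these 4 genes the single unstimulated libraries lay further apart than the means after anti-IgM. Polr1b was 4.26 times its unstimulated level in wild type and 3.47 times in the labelled knockout, and Polr1a 2.79 and 2.10 times. Polr2m was 1.44 and 1.10 times, and Polr2a 1.30 and 0.903 times. In the unstimulated pair, labelled knockout minus wild type was 0.50 for Polr2a, 0.36 for Polr2m, 0.34 for Polr1b and 0.34 for Polr1a. It was 0.34 for Polr3d and 0.32 for Polrmt. After anti-IgM none of these 6 genes was called between genotypes.

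The unstimulated difference moved with the length of the gene. Across the 28 members it correlated with exonic length, with Pearson's r = 0.552 and Spearman's rho = 0.638; the points share the same 2 libraries and are a description. Over 9069 tested protein-coding genes the rho was 0.231. Of the 4 genes with a called difference in response, Polr1a has 9216 exonic bases, Polr2a 6740, Polr1b 4633 and Polr2m 2424, against 624 for Polr2k. Length did not order every member, since Polr3f, with 5490 exonic bases, had an unstimulated difference of -0.0019. The part of transcript length in the 4 differences in response was not tested, and the 2 lone unstimulated libraries and their genotypes cannot be told apart.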

How the data were processed

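Messenger RNA of enriched mouse B cells was sequenced in 10 libraries from a stranded kit, per the labels' protocols. The authors deposited 1 table of FPKM for 17658 genes. STAR 2.4, RSEM 1.2.14 and mm10 appear in the submitters' processing notes; the gene annotation, any filter and whether strand was used are not given in the sources used here. FPKM are not counts, so no count model was fitted, and absolute depth is unknown; relative depth came from 57 of 223 low genes whose values were whole multiples of a step (within 0.12 of a read). Values were taken as log2(FPKM + 1), and genes whose mean over all libraries reached 1 FPKM (10225) were fitted with limma 3.58.1 (R 4.3.3; eBayes with trend, two-sided) and adjusted by Benjamini-Hochberg over all of them; the procedure was tested on simulated data. Anti-IgM was tested over 10 libraries with genotype as a term (called at an adjusted p under 0.05 with a change of 0.5 or more in size), genotype over the 8 anti-IgM libraries, and the difference in response with 4 group means. Single genes were also compared by an exact permutation test over the 70 labellings.

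Members, companion lists and tests were chosen with earlier results of these data known. Of the 29 members, 1 is not reported here and enters no count of members; the other 28 are described, and of each companion list at most the 3 called genes of largest size per comparison are named; Taf1b (the 1 fall in its list), Znrd1, Crcp, genes overlapping members and the chromosome neighbours of Polr2k were named after their values were seen. Alternatives covered pseudocounts, filters, scalings, size minimums, the letter as a block and leaving out each library. Coordinates are from GENCODE M21 (GRCm38) and promoters from RefSeq (GRCm38.p6).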

Additional observations from a re-analysis of the deposited data

Results flagged for a closer look

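In 2 of the 56 groups of 4 libraries formed by the 28 genes and 2 genotypes after anti-IgM, 1 library stood apart from the other 3 by Dixon's criterion; chance alone would give about 1 in 20, or 2.8. Both were wild-type library B. Polr1b was at 93.61 FPKM there, against 97.74 to 98.59 in the other 3, and Polr3d at 32.52 FPKM, against 36.56 to 36.82. Leaving this library out ended neither call with anti-IgM. Without it the difference in response of Polr3d, -0.25 and not called with all libraries, was -0.29 and was called.

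The response to anti-IgM differed between the genotypes, labelled knockout minus wild type on the log2 scale, for Polr1a (-0.39), Polr1b (-0.29), Polr2a (-0.52) and Polr2m (-0.38) in the limma fit of 4 group means. In each of these genes the unstimulated labelled knockout library was above the unstimulated wild-type one, and each unstimulated group is 1 library.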

How the results depend on the processing

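With anti-IgM 11 members were called higher and 3 lower. A log2 minimum of 1 made these 6 and 1, against 7.94% and 12.4% of all genes tested. No minimum made them 18 and 6, against 31.2% and 47.7% of all genes. The fit of the libraries lettered A alone held 1 library in each group. In it the median change of all genes tested was -0.19, against -0.17 with all 10 libraries. Leaving out 1 library gave 11 to 14 higher and 3 to 4 lower, 14 higher without the unstimulated labelled knockout library. With a filter of 5 FPKM on the mean, Polr3gl was not tested. The count lower in the labelled knockout was 2, and 1 with no filter, median-of-ratios scaling or a log2 minimum of 0.2; without 1 library it was 1 to 2, since Polr2e was lost without wild-type library A or B or labelled knockout library A or D, and Polr2i took its place without labelled knockout library B. The difference in response was called in 13 members after rescaling to the same sum, 7 with quantile normalization (3 of them higher), 3 with median-of-ratios scaling (Polr1b lost), and 4 to 5 without 1 stimulated library, with Polr2k called higher without labelled knockout library A; it could not be fitted without an unstimulated one. The shares of all genes called for the difference in response moved with the scaling too, as given above. Among all genes called between genotypes, the share higher was 40.2% as deposited, 59.7% with median-of-ratios scaling and 52.1% with quantile normalization. The cause of these shifts was not tested. No call changed direction.

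Same-letter libraries of the 2 genotypes did not deviate together (r between -0.122 and 0.0445, 0 of 4 closest to its own letter). With the letter as a replicate block the counts stayed at 11, 3 and 2, with limma adjusted p of 0.00131 for Polr2k and 0.0416 for Polr2e. Absolute depth is unknown, and 1 unstimulated library per genotype limits every statement on the unstimulated state.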
